A study of Mus musculus with 6 samples.

Results

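The genes examined were 9 markers of megakaryocytes and platelets, *Pf4*, *Ppbp*, *Gp1ba*, *Gp1bb*, *Gp9*, *Gp5*, *Gp6*, *Treml1* and *Vwf*, taken as a named list and matched by gene symbol. All 9 were found among the 17854 genes of the expression table. Bulk RNA-seq had been made of Tomato+ cells, meaning cells that glow red because a Prrx1-Cre transgene, active in limb mesenchyme and its descendants, switched on the R26tdTomato reporter. In 1 group, with 3 libraries, the cells had come from the knee cartilage of male C57BL/6 mice with knee osteoarthritis after transection of the anterior cruciate ligament at 8 weeks of age, whose joints had received an injection of Tomato+ Prrx1-lineage mesenchymal stromal cells (MSCs) from inguinal fat, so that the reporter was carried by the injected cells alone. In the other group, also with 3 libraries, they were endogenous Tomato+ articular cells of male *Prrx1-Cre; R26tdTomato* mice on the same strain, matched for age, with no surgery or injection named. Both were released by collagenase and sorted on Tomato alone, with no gate against blood cells named in the methods. The methods give 3 mice for each group but do not say whether a library was 1 mouse, so p-values measure the spread between libraries, which may be technical. Surgery, injection, time in the joint and fat origin all differed between the groups at once and cannot be told apart.

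Megakaryocytes are the large marrow cells that shed platelets into the blood, and platelets, which lack a nucleus, carry over RNA from them. Platelets catch on damaged vessel walls when the GPIb-IX-V complex on their surface binds von Willebrand factor, and are then activated through receptors for collagen, thrombin, ADP and thromboxane. Their alpha granules release chemokines and adhesive proteins. Cartilage has no vessels, so these cells are not part of healthy cartilage, but marrow and synovium lie next to it.

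Each library held between 22060628 and 24881796 expected counts, so that 3 counts, taken as the limit that a count of 0 allows, stood for 0.121 to 0.136 counts per 1000000 in the library (CPM). The label of both groups was chondrocyte. All 13 chondrocyte markers, *Col2a1* and *Acan* among them, were lower in the MSC-derived cells, and their summed level was 1137 to 1181 CPM there against 54929 to 56706 CPM in the endogenous cells. Their median log2 fold change was -6.57. The defining markers of cartilage were detected in both groups, at a far lower level in the MSC-derived one. Endogenous replicate 1 stood apart: 3449 genes had no count in it, against 1323 and 1375 in the other endogenous libraries. Of the genes with 10 or more counts in both of those, 4.80% had none in replicate 1, and these included *Ppbp* and *Treml1*. Values without it are given beside the results of members that it moved.

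Of the 9 genes, *Pf4* and *Vwf* were higher in MSC-derived cells than in endogenous ones, and *Gp1bb*, *Gp5* and *Gp1ba* were lower. *Gp9*, *Ppbp* and *Treml1* did not pass the test, and *Gp6* had too few counts to be tested. Over all 14289 genes tested with edgeR at an adjusted p of 0.05, 31.3% were called higher and 30.3% lower, so that 2 and 3 calls among the 8 genes tested were close to the share among all genes. The median log2 fold change of the 8 was -0.52, and that of all genes tested was 0.05. Without endogenous replicate 1, all 9 passed the filter, 2 were called higher and 5 lower, since *Ppbp* and *Gp6* joined the genes that fell. In that fit 37.8% of all genes tested were called higher and 38.6% lower. Because these are bulk libraries, fewer cells of a type and less RNA in each cell cannot be told apart.

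**Figure D1:**
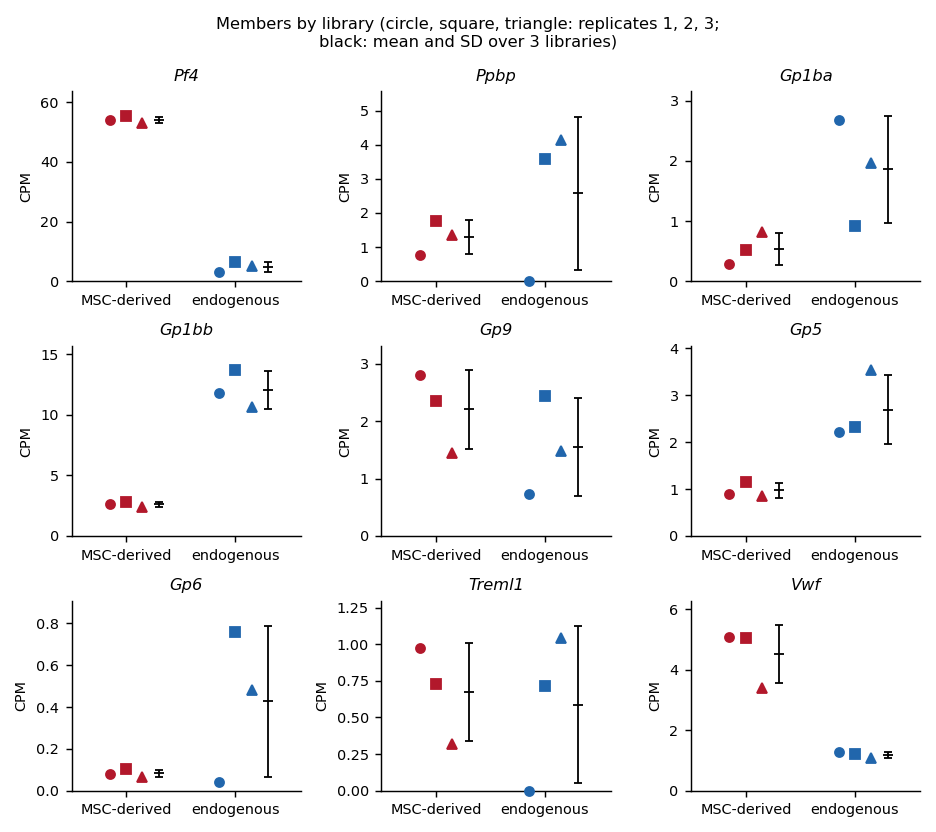
Level of each of the 9 genes in CPM (vertical axes, each from 0) in the 3 MSC-derived libraries (red) and the 3 endogenous libraries (blue), with the mean and SD over 3 libraries in black. The MSC-derived points lie above the endogenous ones for *Pf4* and *Vwf* and below them for *Gp1bb*, *Gp5* and *Gp1ba*, and endogenous replicate 1 (circle) is at 0 for *Ppbp* and *Treml1*.

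The members were first taken by role, beginning with the alpha-granule chemokines. *Pf4* encodes platelet factor 4, the heparin-binding chemokine CXCL4, whose transcripts are also known from some tissue macrophages. Its counts were 1324, 1289 and 1169 in MSC-derived replicates 1, 2 and 3, and 72, 151 and 127 in the endogenous ones. The groups were far apart. The MSC-derived libraries were close to one another, while the endogenous ones spread more widely, with replicate 1 the lowest. In FPKM, which divides by transcript length, the level was 134 ± 2.72 (SD, n = 3) against 11.95 ± 4.23 (SD, n = 3). By this scale *Pf4* ranked 751 to 782 of the 17854 genes in the MSC-derived group and 3918 to 6424 in the endogenous group. It was 10.3-fold higher in the MSC-derived cells, a log2 fold change of 3.36 with an SE of 0.25 (edgeR, adjusted p = 1.86e-05).

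*Ppbp* encodes pro-platelet basic protein, the precursor of the chemokine CXCL7, and lies beside *Pf4* in the same chemokine cluster. Its counts were 19, 41 and 30 in the MSC-derived libraries and 0, 85 and 103 in the endogenous ones. Endogenous replicate 1 was below every MSC-derived library and the other endogenous libraries were above them all, so that the groups overlapped. The log2 fold change was -1.11 with a 95% interval from -3.96 to 1.75 (edgeR, adjusted p = 0.455). Without endogenous replicate 1 it was -1.75 (adjusted p = 0.000154). The call therefore turned on the 1 library without a count.

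The pair of granule chemokines was also set against each other within each library, where the scaling of the library drops out. The log2 ratio of *Ppbp* to *Pf4* in FPKM was -7.29, -6.13 and -6.44 in MSC-derived replicates 1, 2 and 3, and -1.99 and -1.46 in endogenous replicates 2 and 3, with replicate 1 undefined. *Pf4* exceeded *Ppbp* in all 5 libraries, by far more in the MSC-derived ones. The difference between the means was -4.90, and the two-sided exact permutation test gave p = 0.1, the smallest it allows here.

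The von Willebrand factor receptor, GPIb-IX-V, is built from 4 of the genes. *Gp1ba* encodes the chain that binds von Willebrand factor, *Gp1bb* the chain linked to it by disulphide bonds, *Gp9* a small subunit needed to bring the complex to the surface, and *Gp5* the subunit cleaved by thrombin. The first, second and last of these were lower in the MSC-derived cells, while *Gp9* was not called. For *Gp1bb* the counts were 65, 66 and 52 in the MSC-derived libraries and 277, 325 and 264 in the endogenous ones. No library of one group came near the other group. *Gp1bb* was 4.99-fold lower, a log2 fold change of -2.32 with an SE of 0.22 (edgeR, adjusted p = 6.14e-05). The gene overlaps *Septin5*, a septin GTPase gene upstream of it whose longer transcripts run on into *Gp1bb*. All 6 expected counts of both genes were fractional, which shows reads shared out between genes or transcripts, and *Septin5* had 1971 to 2131 counts against 3525 to 4207, a log2 fold change of -0.98 (adjusted p = 5.13e-05). The part of *Septin5* reads in the level of *Gp1bb* was not tested.

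*Gp5* counts were 22, 27 and 19 in the MSC-derived libraries and 52, 55 and 88 in the endogenous ones. The groups did not overlap, and endogenous replicate 3 was the highest. It was 2.99-fold lower, a log2 fold change of -1.58 with an SE of 0.42 (edgeR, adjusted p = 0.0131). The adjusted p rose to 0.0648 without MSC-derived replicate 1, to 0.0652 without MSC-derived replicate 3 and to 0.0601 without endogenous replicate 3, which ended the call.

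*Gp1ba* counts were 7, 12 and 18 in the MSC-derived libraries and 63, 22 and 49 in the endogenous ones. The highest MSC-derived library lay just under the lowest endogenous one. The log2 fold change was -1.90 with an SE of 0.63 (edgeR, adjusted p = 0.0333). The call was lost without MSC-derived replicate 1 (adjusted p = 0.13), replicate 2 (0.118) or replicate 3 (0.0559), and without endogenous replicate 3 (0.0823). *Slc25a11*, a mitochondrial carrier gene, lies 32 bases away in RefSeq, and with no strand setting given in the sources used here, reads at that edge could belong to either gene.

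*Gp9* counts were 69, 55 and 32 in the MSC-derived libraries and 17, 58 and 37 in the endogenous ones. The groups overlapped through endogenous replicates 2 and 3, with replicate 1 the lowest of all. The log2 fold change was 0.39 with a 95% interval from -0.91 to 1.68 (edgeR, adjusted p = 0.569), and it was -0.0034 without endogenous replicate 1. The transcript length implied by count and FPKM together ran from 1003 to 1860 bases between libraries, a 1.85-fold range, against 1.08-fold or less for *Pf4*, *Gp1bb* and *Gp5*. *Gp1ba* was left out of this comparison, as its FPKM was too low in the MSC-derived libraries (0.06 to 0.18). Its FPKM was also low for its CPM there, with means of 0.127 FPKM and 0.541 CPM. In the endogenous libraries they were 0.67 FPKM and 1.86 CPM. Ratios that use the FPKM of *Gp9* or *Gp1ba* carry such differences.

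Relative to *Gp9*, the other subunits were lower in the MSC-derived libraries. The log2 ratio of *Gp1bb* to *Gp9* was -0.57, -0.61 and 0.30 in those and 3.99, 1.84 and 2.41 in the endogenous ones, a difference of -3.04. The difference was -3.31 for *Gp1ba* and -2.33 for *Gp5*. Its size turned on endogenous replicates 1 and 2: without the first and without the second it was -2.32 and -4.24 for *Gp1ba*, -2.42 and -3.49 for *Gp1bb*, and -1.81 and -2.97 for *Gp5*. In FPKM the groups did not overlap in any of the 3 ratios. For *Gp1ba* they nearly met, at -2.54 in MSC-derived replicate 3 and -2.48 in endogenous replicate 2. On expected counts these libraries changed order (18 to 32 counts against 22 to 58), so that the groups overlapped for *Gp1ba*. The difference for *Gp1ba* was then -2.40. Each of the 3 ratios in FPKM had p = 0.1 in the two-sided exact permutation test, the smallest that 3 libraries against 3 allow. After Benjamini-Hochberg adjustment over the 10 ratios compared it was 0.143.

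**Figure D2:**
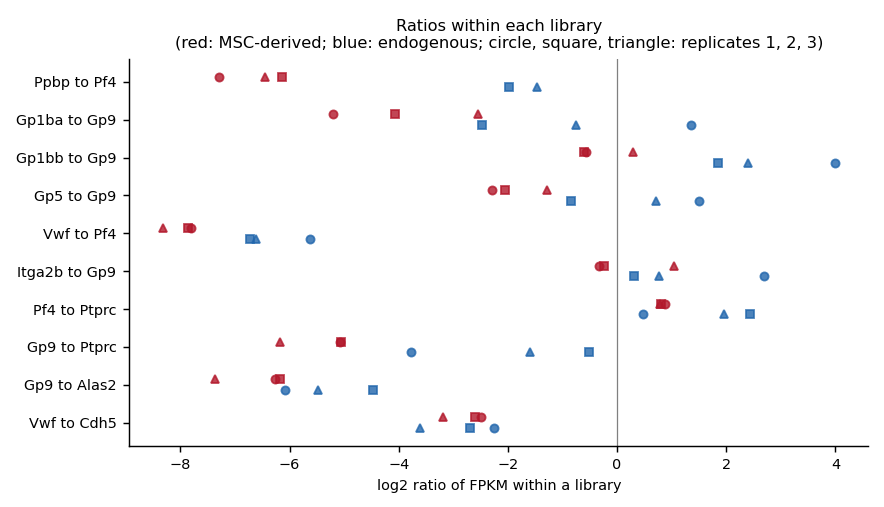
Log2 ratio of 2 genes in FPKM within each library (horizontal axis) for the 10 pairs compared, with MSC-derived libraries in red and endogenous libraries in blue. The red and blue points are apart for the 3 ratios to *Gp9* of the other complex subunits, only just for *Gp1ba*, and for *Ppbp* to *Pf4*. They overlap for *Itga2b* to *Gp9*, *Pf4* to *Ptprc* and *Vwf* to *Cdh5*.

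To let these genes be compared at their starts, the 250 bases before the transcription start are shown for the 4 subunits and for *Pf4*. Of the subunits 3 were called lower in the MSC-derived cells, while *Pf4* was called higher. The sequences are from RefSeq on GRCm38.p6, printed 5′ to 3′ along the gene, and lie at chr11:70638872-70639121, plus strand (*Gp1ba*), chr16:18622404-18622653, minus strand (*Gp1bb*), chr6:87777820-87778069, plus strand (*Gp9*), chr16:30310782-30311031, minus strand (*Gp5*) and chr5:90772185-90772434, plus strand (*Pf4*). Capitals mark matches, on either strand, to motifs of the factors that drive megakaryocyte genes: for GATA factors the letters AGATAA or AGATAG or TGATAA or TGATAG, and for ETS factors such as FLI1 the letters AGGAAG or CGGAAG. A match on the opposite strand appears as its reverse complement.
Gp1ba: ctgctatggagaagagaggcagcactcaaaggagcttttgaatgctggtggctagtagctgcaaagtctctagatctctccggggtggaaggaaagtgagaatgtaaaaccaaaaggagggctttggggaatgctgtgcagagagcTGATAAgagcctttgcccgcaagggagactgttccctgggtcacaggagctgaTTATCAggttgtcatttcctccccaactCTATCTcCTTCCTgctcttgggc
Gp1bb: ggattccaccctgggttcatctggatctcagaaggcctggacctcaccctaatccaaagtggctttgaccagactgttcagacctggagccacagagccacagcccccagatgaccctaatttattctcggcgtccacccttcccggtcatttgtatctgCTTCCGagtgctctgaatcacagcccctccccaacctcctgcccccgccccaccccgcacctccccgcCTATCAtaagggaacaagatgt
Gp9: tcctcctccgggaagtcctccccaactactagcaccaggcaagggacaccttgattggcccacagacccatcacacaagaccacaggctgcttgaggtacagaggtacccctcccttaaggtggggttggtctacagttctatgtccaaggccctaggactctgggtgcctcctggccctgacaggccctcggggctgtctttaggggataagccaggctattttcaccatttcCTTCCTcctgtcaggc
Gp5: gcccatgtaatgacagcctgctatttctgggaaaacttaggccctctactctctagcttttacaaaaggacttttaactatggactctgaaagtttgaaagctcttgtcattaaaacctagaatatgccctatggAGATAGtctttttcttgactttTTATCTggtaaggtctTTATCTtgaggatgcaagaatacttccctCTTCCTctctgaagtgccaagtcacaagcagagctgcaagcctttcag
Pf4: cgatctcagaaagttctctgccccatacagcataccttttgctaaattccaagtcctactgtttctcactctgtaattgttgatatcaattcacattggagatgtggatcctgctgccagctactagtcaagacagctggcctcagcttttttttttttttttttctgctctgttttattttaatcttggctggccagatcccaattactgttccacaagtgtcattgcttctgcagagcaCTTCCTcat
In *Gp1ba* the GATA matches began 104, 51 and 23 bases before the start and the ETS match 16 bases before it. *Gp5* had GATA matches at 115, 93 and 77 bases and an ETS match at 48 bases. *Gp1bb* had 1 GATA match, at 22 bases, and an ETS match at 90 bases, while *Gp9* had an ETS match at 16 bases and no GATA match in these letters. *Pf4* had an ETS match at 9 bases, and its GATA match lay after the start. In windows running from 250 bases before the start to 50 after it, 5 of the 8 members with a RefSeq window held a GATA match, 5 an ETS match and 4 both, against 29.8%, 46.5% and 12.6% of all 32851 windows. The genes that fell and the gene that rose both carried such matches, which describe letters and not binding. *Vwf* had no entry in the table.

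The collagen receptor and the remaining receptor were near the limit of detection. *Gp6* encodes glycoprotein VI, which binds collagen and signals through the Fc receptor gamma chain. Its counts were 2, 2 and 1 in the MSC-derived libraries and 1, 18 and 12 in the endogenous ones. Endogenous replicates 2 and 3 were above the rest, and replicate 1 was among the MSC-derived values. With no filter on low counts the log2 fold change was -2.61 (edgeR, adjusted p = 0.108). Without endogenous replicate 1 it was -3.20 (adjusted p = 0.00119).

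*Treml1* encodes TLT-1, a receptor stored in the alpha-granule membrane and exposed on activation. Its counts were 24, 17 and 7 in the MSC-derived libraries and 0, 17 and 26 in the endogenous ones. Both groups spread over nearly the whole range. The log2 fold change was 0.08 with a 95% interval from -2.53 to 2.68 (edgeR, adjusted p = 0.955), an interval too wide to place the direction, and it was -0.55 without endogenous replicate 1.

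*Vwf* encodes von Willebrand factor, the ligand that the GPIb-IX-V complex binds, and is made by endothelial cells as well as megakaryocytes. Its counts were 125, 118 and 75 in the MSC-derived libraries and 30, 29 and 27 in the endogenous ones. All 3 MSC-derived libraries were higher, with replicate 3 the lowest of them. *Vwf* was 3.47-fold higher, a log2 fold change of 1.80 with an SE of 0.36 (edgeR, adjusted p = 0.00342). Per transcript length the level was low in both, at 0.533 ± 0.107 FPKM (SD, n = 3) against 0.143 ± 0.0115 FPKM (SD, n = 3).

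Endothelial markers stood beside *Vwf*. Of 15 such genes, 8 were higher in the MSC-derived cells, 1 was lower and 6 were not called. Among all genes tested, 31.3% were called higher and 30.3% lower. Without endogenous replicate 1, 11 endothelial genes were called higher and 1 lower, beside 37.8% and 38.6% of all genes. Their median log2 fold change was 1.21, and they summed to 148.7 to 160.3 CPM against 106.1 to 133.3 CPM. *Cdh5*, the cadherin of endothelial junctions, had 314 to 319 counts against 64 to 150 and a log2 fold change of 1.59 (edgeR, adjusted p = 0.00292). The log2 ratio of *Vwf* to *Cdh5* was -2.49, -2.61 and -3.20 in the MSC-derived libraries and -2.26, -2.69 and -3.61 in the endogenous ones. The groups overlapped throughout, with a difference of 0.09 (two-sided exact permutation test, p = 0.8). The ratio of *Vwf* to *Pf4*, by contrast, did not overlap and differed by -1.68 (exact permutation test, p = 0.1, adjusted 0.143). The part of endothelial cells in the level of *Vwf* was not tested.

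**Figure D3:**
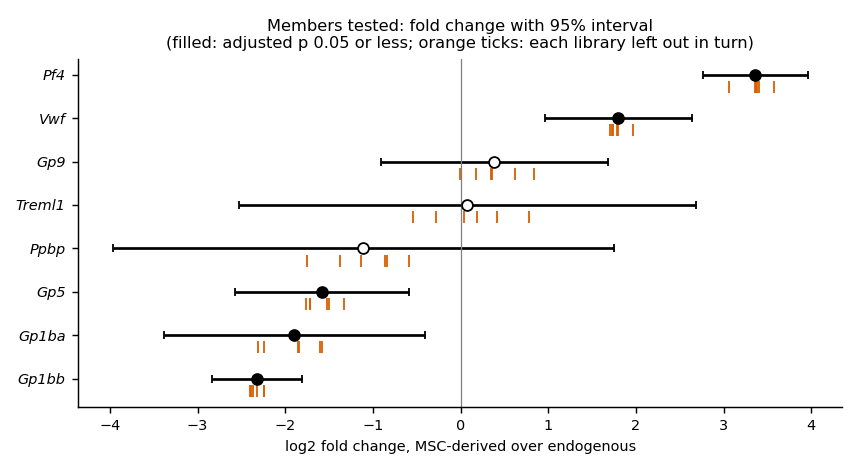
Log2 fold change (horizontal axis, MSC-derived over endogenous) of the 8 genes tested, with the 95% interval worked out from edgeR's F statistic as black bars. Points are filled for an adjusted p of 0.05 or less, and orange ticks give the value with each library left out in turn. The intervals of *Pf4* and *Vwf* lie above 0, those of *Gp1bb*, *Gp5* and *Gp1ba* below 0, and those of *Gp9*, *Treml1* and *Ppbp* span 0.

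Summed over all 9 genes, the level was 63.6 to 69.7 CPM in the MSC-derived libraries and 21.9 to 32.0 CPM in the endogenous ones. *Pf4* made up most of the first range. Leaving it out, the other 8 genes summed to 10.6 to 14.5 CPM against 18.8 to 25.6 CPM, so that the order of the groups turned around. *Gp1bb* was the largest part of that endogenous sum, at 10.6 to 13.7 CPM against 2.37 to 2.82 CPM in the MSC-derived libraries. The turn thus rested largely on *Gp1bb*, and a sum without both genes was not taken. In FPKM, where levels can be set side by side between genes, *Pf4* was the highest of the 9 in every library. *Gp9* was next in MSC-derived replicates 1 and 2 and *Ppbp* in replicate 3, at 1.51 FPKM against 1.29 for *Gp1bb* and 1.05 for *Gp9*. *Gp1bb* was next in all 3 endogenous libraries, at 5.73 to 7.38 FPKM.

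Beside the platelet genes, 4 lists of other blood cell markers were higher throughout. All 13 macrophage markers were higher in the MSC-derived cells, and summed to 21329 to 21753 CPM against 346.1 to 461.9 CPM. All 10 neutrophil markers were higher too, at 46055 to 47992 against 2067 to 2905 CPM, and so were all 15 erythroid markers, at 26630 to 26913 against 3976 to 5816 CPM, and all 10 general leukocyte markers, at 6589 to 6659 against 265.6 to 328.3 CPM. Transcripts of blood cell genes were thus present in all 6 libraries and higher in the MSC-derived ones. Of the mast cell and basophil list 2 of 6 genes tested were higher and 4 were not called (5 higher without endogenous replicate 1). In the blood stem and progenitor list 3 of 9 were higher and 2 lower. The shares called higher were close to the 31.3% of all genes tested, of which 30.3% were called lower. *Kit* was in both lists. The summed levels of both lists were nevertheless higher in the MSC-derived libraries. They were 518.2 to 545.6 against 73.3 to 93.9 CPM for mast cells and basophils. For blood stem and progenitor cells they were 331.0 to 353.9 against 116.7 to 143.8 CPM. Within the first list, the mast cell proteases *Tpsb2* and *Cma1* had at most 1 and 5 counts in any library. All 9 mesenchymal markers were lower, at 5237 to 5286 against 94000 to 105856 CPM.

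**Figure D4:**
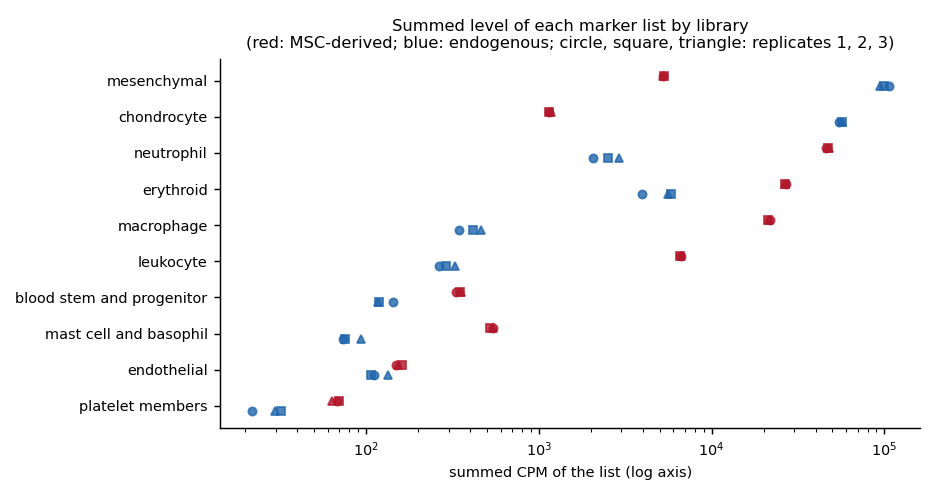
Summed level in CPM (horizontal log axis) of the 9 platelet genes and of each marker list, for the 3 MSC-derived libraries (red) and the 3 endogenous libraries (blue). The platelet genes sum to between 21.9 and 69.7 CPM, below every other list. The chondrocyte and mesenchymal lists are higher in blue, and all the other lists are higher in red.

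*Pf4* and *Gp9* were therefore set against single blood cell genes. *Ptprc*, the pan-leukocyte phosphatase CD45, had between 8136 and 8926 counts per MSC-derived library against 340 to 604, a log2 fold change of 4.20 (edgeR, adjusted p = 2.81e-06). The log2 ratio of *Pf4* to *Ptprc* was 0.87, 0.80 and 0.79 in the MSC-derived libraries and 0.48, 2.43 and 1.96 in the endogenous ones. The groups overlapped through endogenous replicate 1 alone, with replicates 2 and 3 above every MSC-derived value, and the difference was -0.80 (two-sided exact permutation test, p = 0.4). It was -1.37 without endogenous replicate 1 and -0.40 without endogenous replicate 2. *Gp9* fell short of *Ptprc* by far more in the MSC-derived libraries, with a difference of -3.48 (exact permutation test, p = 0.1), and also relative to *Alas2*, the first enzyme of haem synthesis in red cell precursors, with a difference of -1.25 (p = 0.1). Without endogenous replicates 1 and 2 in turn, the first difference was -4.38 and -2.75 and the second -1.62 and -0.82. *Alas2* itself had a log2 fold change of 1.96 (edgeR, adjusted p = 0.000149). The part of leukocytes and macrophages in the level of *Pf4* was not tested.

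Another 50 genes known from megakaryocytes and platelets were examined by role. Of the 47 tested, 20 rose, 14 fell and 13 were not called, and the median log2 fold change was 0.23. These were 42.6% and 29.8% of the list, beside 31.3% and 30.3% of all genes tested. Without endogenous replicate 1 the counts were 22 and 19 of 48, or 45.8% and 39.6% beside 37.8% and 38.6% of all genes, and these included all 20 and all 14 from the full set. Counts by role follow as a description of small groups of genes.

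Of the 7 adhesion receptors tested, 2 rose, 1 fell and 4 were not called. *Fcer1g*, the Fc receptor gamma chain that also serves macrophages and mast cells, had a log2 fold change of 5.42 (edgeR, adjusted p = 2.91e-06). *Clec1b*, the podoplanin receptor CLEC-2, had 798, 762 and 661 counts against 55, 21 and 13, a log2 fold change of 4.55 (adjusted p = 0.000102). Both are expressed by myeloid cells as well as platelets. *Cd9*, a tetraspanin found on platelets and many other cells, was lower (-1.73, adjusted p = 6.50e-07). *Itga2b*, the alpha chain of the fibrinogen receptor and a defining gene of the lineage, had 139, 151 and 156 counts against 193, 198 and 148. Its groups overlapped and its log2 fold change was -0.35 (adjusted p = 0.233), and its ratio to *Gp9* differed by -1.10 (two-sided exact permutation test, p = 0.3). That difference was -0.38 without endogenous replicate 1 and -1.57 without endogenous replicate 2.

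The 8 agonist receptors tested included 1 that rose and 3 that fell. *P2ry12*, the ADP receptor blocked by clopidogrel and also a gene of microglia and some other macrophages, had 761, 639 and 656 counts in the MSC-derived libraries and 0, 1 and 0 in the endogenous ones. Against 3 counts in a library, more than any endogenous library held, it was at least 214-fold higher in CPM. The limit for a count of 0 does not cover the 1 count in endogenous replicate 2. *P2ry12* was called higher (edgeR, adjusted p = 6.28e-07). *Adra2a*, an adrenaline receptor, was 27.7-fold lower, with 12 to 19 counts against 354 to 447 (adjusted p = 4.15e-06). *F2r*, the thrombin receptor PAR1, fell by 0.69 on the log2 scale (adjusted p = 0.0193). PAR1 is known to be scarce on mouse platelets and common on fibroblasts and endothelium. *F2rl3*, *Itga2* and *P2rx1*, named after their values were seen, had no count in endogenous replicate 1 but 10 or more in the other endogenous libraries. *P2rx1*, an ATP-gated channel, had 123, 121 and 115 counts against 0, 170 and 173, and was not called (adjusted p = 0.998). Without endogenous replicate 1 its log2 fold change was -0.63 (adjusted p = 0.00584).

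Granule cargo and granule-forming genes were mixed, with 2 higher and 4 lower of 9 tested. *Clu*, clusterin, was 13.5-fold lower (edgeR, adjusted p = 1.78e-07), and *Thbs1*, thrombospondin 1, was 2.35-fold lower (adjusted p = 1.72e-05). Both are also secreted by cartilage cells. *Rab27b*, a GTPase of dense granule formation and secretion, had 15 to 20 counts against 291 to 412 and was 20.3-fold lower (adjusted p = 7.78e-06). *F13a1*, the A subunit of coagulation factor XIII, was 1.12 times the endogenous level and was not called (adjusted p = 0.0929).

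Among the 11 transcription factors 7 were higher and 2 lower. *Nfe2*, which drives the last steps of platelet formation and is shared with red cell precursors, was 5.88-fold higher (edgeR, adjusted p = 5.53e-07). *Lyl1*, a haematopoietic helix-loop-helix factor, was 8.49-fold higher (adjusted p = 0.00276), and *Mafg*, the small partner of NF-E2, was 1.17-fold higher (adjusted p = 0.0395). *Runx1*, which is also expressed in cartilage and its precursors, was 3.65-fold lower (adjusted p = 6.13e-05). *Gata1*, *Tal1* and *Gfi1b*, named here after their values were seen because red cells and mast cells use them too, had log2 fold changes of 1.73, 2.14 and 1.55.

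Of the 12 signalling, cytoskeletal and enzyme genes 8 rose and 4 fell. *Bin2*, a membrane-bending protein of blood cells, was 31.1-fold higher (edgeR, adjusted p = 1.30e-07), and *Rasgrp2*, the exchange factor that activates platelet integrins, was 8.23-fold higher (adjusted p = 1.28e-07). *Myl9*, a myosin light chain shared with smooth muscle and fibroblasts, was 14.4-fold lower (adjusted p = 1.19e-07). *Tubb1*, the beta-tubulin of the platelet's marginal band, had 6, 1 and 5 counts against 99, 103 and 89 and was 24.8-fold lower (adjusted p = 0.000395). The groups were wide apart and endogenous replicate 1 was in the middle of its group. *Tubb1* had the most negative log2 fold change of the 12.

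**Figure D5:**
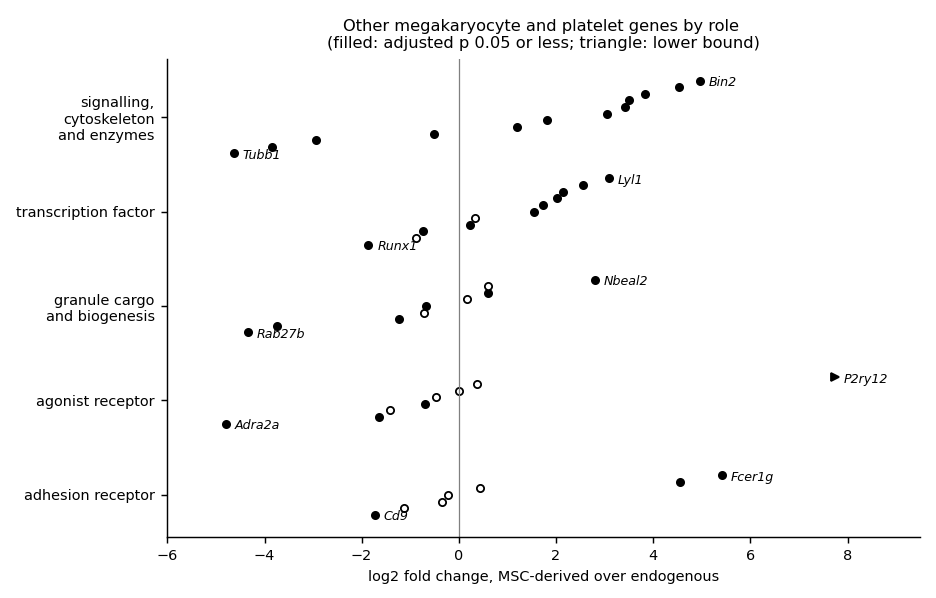
Log2 fold change (horizontal axis, MSC-derived over endogenous) of the 47 other megakaryocyte and platelet genes tested, grouped by role, with points filled where edgeR's adjusted p was at most 0.05 and the highest and lowest of each role named. Genes lie on both sides of 0 in every role, from -4.79 for *Adra2a* up to the lower bound drawn for *P2ry12* as a triangle.

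For each of the 8 genes tested, the genes with the most similar pattern over the 6 libraries were found by the root mean square difference in centred log2 CPM. *Pf4* was nearest to *Stk10* (0.08), *Zfp710* (0.11) and *Tmem141* (0.11), and *Vwf* to *Uhrf1* (0.12), *Gm12250* (0.12) and *Kel* (0.15). *Gp1bb* was nearest to *Mtmr11* (0.08), *Hes1* (0.09) and *Itga7* (0.09), and *Gp5* to *Poglut2* (0.11), *Rab30* (0.11) and *Zfp248* (0.12). For *Gp1ba* they were *Zfp982* (0.30), *Fam166a* (0.32) and *Plxna4* (0.33). For *Ppbp* they were *Srd5a1* (0.19), *Vps37d* (0.21) and *Adam11* (0.21), for *Gp9* *Trim23* (0.19), *Cntd1* (0.20) and *Gm52140* (0.21), and for *Treml1* *AI661453* (0.18), *Zscan18* (0.21) and *Bhlha15* (0.24). No member was among the nearest 3 of another. With only 3 places among 14289 genes tested, this does not show whether the members vary together.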

How the data were processed

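Bulk RNA-seq of 3 MSC-derived and 3 endogenous libraries was analysed. Per the labels, the authors aligned reads with Bowtie2 2.2.5 and quantified genes with RSEM 1.2.12 on mm9, while the methods name other versions and no build. The authors deposited for each gene an expected count, not normalized, and FPKM and TPM, which divide by transcript length and library size. A further deposited signal, the rounded-up expected count scaled by 1 library factor, was not tested. The 24 columns of single libraries were matched by name, 8 columns of group means were not used, and 0 were unmapped. FPKM summed to 808701 to 813572 in the MSC-derived and 504768 to 573603 in the endogenous libraries, so FPKM of different groups are not on 1 scale. The edgeR fold changes were taken from counts.

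Rounding expected counts to integers altered 20.6% of values. The comparison used edgeR 4.0.16 under R 4.3.3 (filterByExpr, TMM, quasi-likelihood F test, two-sided) with Benjamini-Hochberg adjustment over 14289 genes and a threshold of 0.05. The study's own test was DESeq2, run here as an alternative (1.42.0), as was limma 3.58.1. The test was checked on simulated data, where a first limit on the recovery of changed genes was not met and was then set on genes with higher counts, so that changes in genes of low count can go uncalled. The members and gene lists were chosen with earlier results of these data known. Named genes were all members, in each role of the wider list the 3 with the highest mean FPKM and the 1 with the largest change, *Ptprc*, *Alas2*, *Cdh5* and *Itga2b*, and the 3 nearest patterns of each member. *Septin5*, *Slc25a11*, *Tubb1*, *F2rl3*, *Itga2*, *P2rx1*, *Gata1*, *Tal1*, *Gfi1b* and markers of other cell types named as examples were singled out after values were seen, unless the rule named them. Alternatives were other normalizations and filters, DESeq2, limma, a replicate block and leaving out each library. Intervals and count limits cover counting error or the spread between libraries as stated. Promoters were RefSeq windows on GRCm38.p6, used apart from the mm9 counts. Figures used matplotlib 3.10.9.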

Additional observations from a re-analysis of the deposited data

How the results depend on the processing

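Under 15 alternative fits per gene, 105 of 120 fold changes of members kept direction and side of the threshold, those of *Pf4*, *Vwf* and *Gp1bb* under every one. Members called lower (3) were 1 with the replicate block, 1 at an adjusted p of 0.001, and 1 to 5 with each library left out; members called higher (2) were 1 at 0.001. With the replicate block *Gp5* (adjusted p = 0.062) and *Gp1ba* (0.0986) lost their calls. Same-numbered libraries share only a number: their deviations correlated at 0.0022 to 0.0178. Each MSC-derived library correlated best with its own number, but endogenous replicate 2 did so with MSC-derived replicate 3 (0.0082). At 0.001, 9 of the wider list were lower (14), 1 endothelial gene higher (8), 1 mast cell and basophil gene higher (2) and 0 progenitor genes lower (2), the last also 0 at an absolute log2 fold change of 1 or more. Leaving out libraries gave 2 to 5 mast cell and basophil genes higher, the 5 without endogenous replicate 1. These stricter thresholds call fewer genes by construction.

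Directions turned for genes that were not called. *Ppbp* was 0.24 with limma on log2(FPKM + 0.1). *Treml1* was -0.031 with upper quartile factors and -0.55 to 0.78 with libraries left out, *Gp9* -0.0034 to 0.83, and the *Vwf* to *Cdh5* ratio -0.28 to 0.39, where leaving out MSC-derived replicate 1 (-0.04) or endogenous replicate 3 (-0.28) turned it. The cause was not tested. Of the 9 members, 7 had counts under 100 in every MSC-derived library. Group spreads were unequal, with a biological coefficient of variation of 6.77% in the MSC-derived and 35.3% in the endogenous libraries.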
